A study of Mus musculus with 12 samples.

Results

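Neural immunoglobulin adhesion molecules are cell surface proteins with immunoglobulin domains that neurons use to recognise each other. The 10 genes described here were taken from 19938 genes measured on the arrays. They were chosen by name, as the probe sets whose annotated symbol was exactly Nrcam, L1cam, Chl1, Nfasc, Cntn1, Cntn2, Ncam1, Ncam2, Dscam or Dscaml1, and each of them had 1 such probe set. RNA came from N2A, a neuroblastoma line of the mouse that extends neurites under retinoic acid (RA), with 3 arrays in each of 4 groups. Control cells carried a stably integrated vector for a scrambled short hairpin RNA, and KD cells the same vector with a hairpin against Dali, a long non-coding RNA. Both were selected with hygromycin, and both were measured either proliferating in medium with 10% serum or after 72 h in medium with 20 uM all-trans RA and 2% serum, so that RA and less serum cannot be told apart. The study's methods call the 3 arrays of a group biological replicates, but neither they nor the labels tell whether these were separate clones or separate cultures of 1 clone. The study isolated single resistant clones and compared them with a stable control line. A difference between KD and control cells therefore cannot be told apart from one between clones or lines. Its SE may also not cover the spread between clones. The knockdown could not be checked on these arrays, as no probe set was assigned to Dali. The study itself reported lower Dali levels in its stable knockdown lines by qRT-PCR.

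The L1 family (L1cam, Nrcam, Chl1 and Nfasc) spans the membrane and binds the spectrin skeleton through ankyrins. It guides axons and, through neurofascin and NrCAM, gathers sodium channels at the axon initial segment and the node of Ranvier. The contactins Cntn1 and Cntn2 have no cytoplasmic part, are held by a lipid anchor and pair with L1 proteins or with contactin-associated proteins. Ncam1 and Ncam2 mediate neuron to neuron adhesion and neurite outgrowth, and Ncam1 is the main carrier of polysialic acid. Dscam and Dscaml1 bind their own kind and steer self-avoidance of dendrites and cell bodies.

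Correlations were 0.9924 to 0.9961 between arrays within groups and 0.9859 to 0.9926 across groups. Of 14 neuronal and sympathoadrenal markers, 12 lay above the median probe set, against 1 of 10 glial, 5 of 11 fibroblast and 0 of 11 immune and endothelial markers. In cells as in other bulk samples, fewer cells that express a gene and less of its RNA per cell cannot be told apart. A gene was called when its adjusted p was under 0.05 and its change at least 1.3-fold, which is 0.38 on the log2 scale, and all values given below are log2 expression or differences of it.

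Signal differed widely between the probe sets, though signals of different probe sets do not rank the genes themselves. Those of Ncam1 and L1cam lay at percentiles 96.8 and 96.1 of all probe sets, Dscaml1 and Dscam at 72.4 and 69.8, and Nfasc, Cntn2 and Nrcam at 46.2, 40.1 and 34.8. Cntn1, Ncam2 and Chl1 lay at 20.0, 11.8 and 9.0 and also varied too little to enter the test, which kept the more variable 9969 genes. For these 3 genes a difference may not have been detectable at such signals.

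In KD cells Nrcam, Nfasc and Dscam were called lower, in both the proliferating and the RA-treated state, and 0 of the 10 genes were called higher. Of all genes tested, 3% and 4% were called lower in these states, and 3.96% and 3.71% higher. With RA other members changed, as L1cam and Dscaml1 fell in both kinds of cell and Ncam1 fell past the fold cutoff in control cells. The plot of expression by array shows both patterns.

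**Figure D1:**
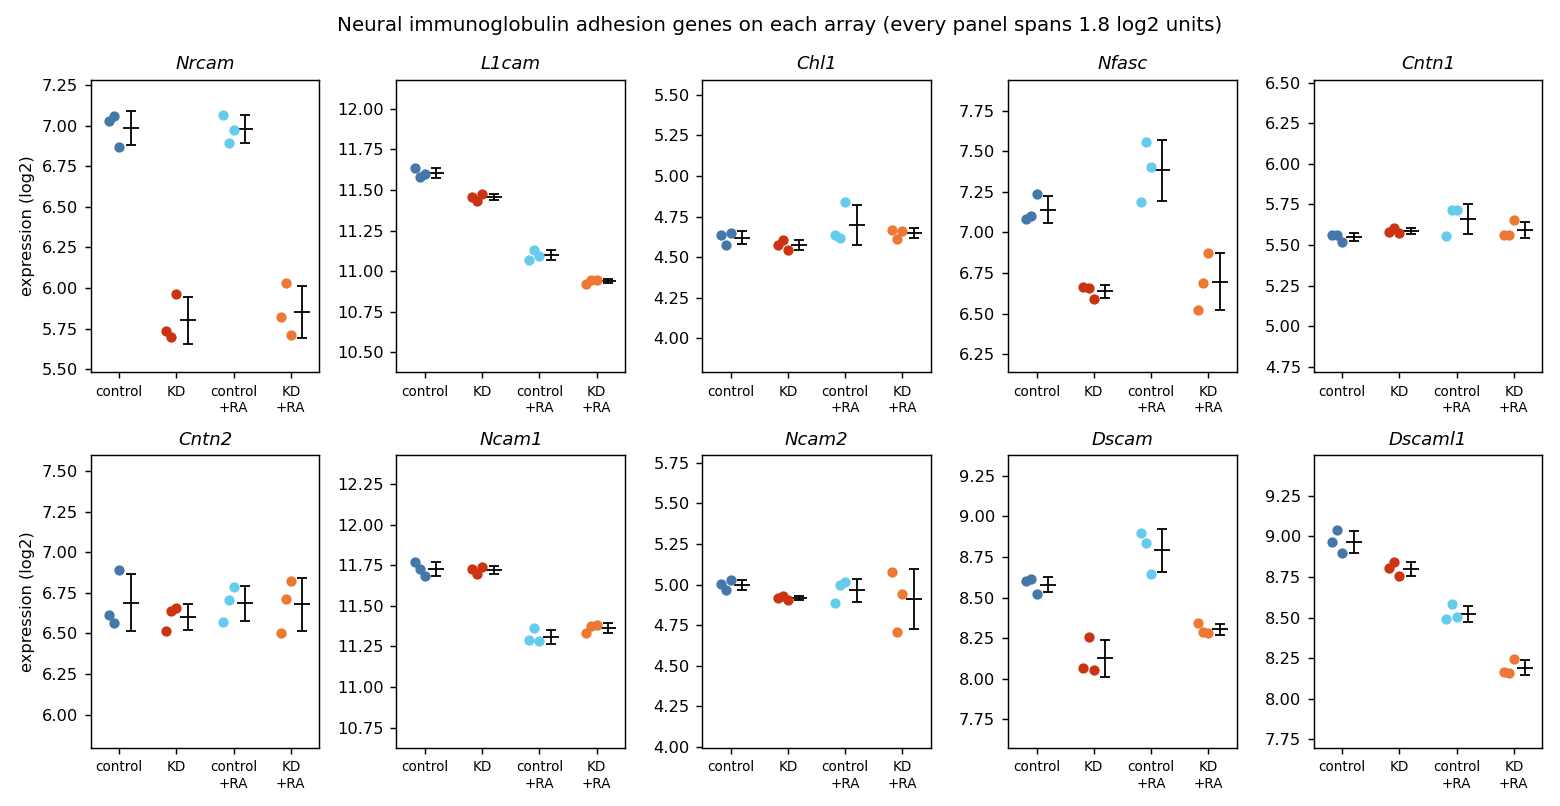
Log2 expression of the 10 adhesion genes (vertical axis) on each of the 12 arrays, in 4 groups of 3 (horizontal axis). Points are arrays, horizontal bars group means and vertical bars SDs. KD arrays lie below control arrays in both states for Nrcam, Nfasc and Dscam, and RA arrays below proliferating arrays for L1cam, Ncam1 and Dscaml1.

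The first question was whether these genes differed between proliferating KD and control cells. Here 3 of 10 members (7 tested) were called lower and 0 higher, where 3% of all genes tested were called lower and 3.96% higher. The members were chosen with Nrcam and Dscam already known to be lower in KD cells. Counts of members called between KD and control cells are therefore not independent support. The median change over the 10 members was -0.12, against -0.01 over all genes. Nrcam, which binds ankyrin and sits on growing axons, changed most. Its expression was 7.03, 7.06 and 6.87 in control cells and 5.74, 5.70 and 5.96 in KD cells. All KD arrays lay below all control arrays. The difference was -1.19 ± 0.09 (SE, n = 3 per group), a 2.27-fold lower level (adjusted p = 5.31e-06). The level in KD cells lay not far above the mean of Cntn1 (5.60), one of the weak probe sets. Low signal may thus limit the fold of Nrcam, and a change of it with RA in KD cells may not have been detectable.

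Nfasc encodes neurofascin, the partner of Nrcam at the axon initial segment. It measured 7.08, 7.10 and 7.23 in control cells and 6.66, 6.66 and 6.59 in KD cells. The groups did not overlap, and the difference of -0.50 ± 0.10 was a 1.41-fold lower level (adjusted p = 0.00228). Dscam, a homophilic receptor that also responds to netrin, stood at 8.60, 8.61 and 8.52 in control cells and at 8.07, 8.25 and 8.05 in KD cells. Again the groups were apart, with a difference of -0.45 ± 0.07, a 1.37-fold lower level (adjusted p = 0.000554).

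Their closest relatives moved less. L1cam lay at 11.64, 11.58 and 11.60 in control cells and at 11.46, 11.43 and 11.48 in KD cells, a difference of -0.15 ± 0.04 (adjusted p = 0.0122). Dscaml1 differed by -0.17 ± 0.05 (adjusted p = 0.0233). For both genes the groups did not overlap, yet the change was below the fold cutoff. Cntn2 (95% confidence interval -0.31 to 0.13) and Ncam1 (-0.10 to 0.09) did not pass the test, and these intervals lie inside the fold cutoff. The intervals of Chl1 (-0.17 to 0.08), Cntn1 (-0.07 to 0.15) and Ncam2 (-0.25 to 0.08) also lay inside the cutoff, at adjusted p of 0.672, 0.676 and 0.527 over all 19938 genes. Yet the groups of Cntn1 (0.04, higher in KD cells) and Ncam2 (-0.08) did not overlap either. Separate groups are thus not particular to the members called lower, and their share over all genes was not counted.

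After RA the same contrast of KD with control cells again had 3 of 10 members (7 tested) called lower, Nrcam, Nfasc and Dscam, and 0 higher. Of all genes tested 4% were called lower and 3.71% higher. After centring of the arrays on their medians, 34.0% of the called genes were higher in place of 48.1%, and after repeated quantile normalisation 54.5%. The members' median was -0.11, against -0.03 over all genes.

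Nrcam measured 7.06, 6.89 and 6.97 in RA-treated control cells and 5.82, 6.03 and 5.71 in RA-treated KD cells. The difference was -1.12 ± 0.09, a 2.18-fold lower level (adjusted p = 8.51e-06). Over all 12 arrays Nrcam therefore fell into a higher pair of control groups and a lower pair of KD groups, and within each pair the arrays of the proliferating and RA-treated cells overlapped.

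Nfasc lay at 7.19, 7.56 and 7.40 in control cells and at 6.52, 6.69 and 6.87 in KD cells after RA. The spread was wider than in proliferating cells, but the groups stayed apart, with a difference of -0.69 ± 0.10 and a 1.61-fold lower level (adjusted p = 0.00029). Dscam stood at 8.90, 8.83 and 8.64 in control cells and at 8.34, 8.29 and 8.28 in KD cells. This was a difference of -0.49 ± 0.07, or 1.40-fold (adjusted p = 0.000337).

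Dscaml1, the paralog of Dscam, came near the fold cutoff after RA. It measured 8.49, 8.58 and 8.50 in control cells and 8.17, 8.16 and 8.24 in KD cells. The groups did not overlap, and the difference of -0.33 ± 0.05 was 1.26-fold (adjusted p = 0.000399). L1cam differed by -0.16 ± 0.04 (adjusted p = 0.00813), with groups that did not overlap either. For Ncam1 the 95% confidence interval was -0.04 to 0.15 and for Cntn2 it was -0.23 to 0.21. Chl1, Cntn1 and Ncam2 had adjusted p of 0.605, 0.366 and 0.677 over all genes.

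**Figure D2:**
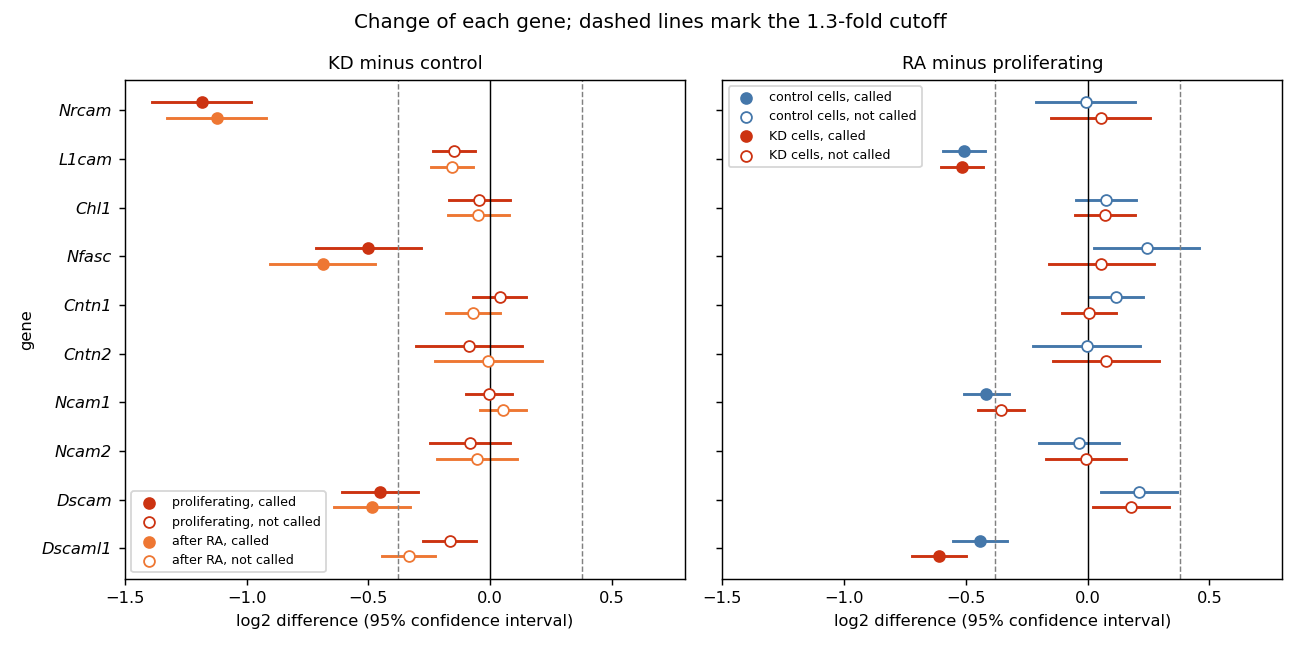
Log2 difference of each gene (horizontal axis) with its 95% confidence interval, for KD minus control (left) and RA minus proliferating (right). Filled points were called and open points were not, and dashed lines mark the fold cutoff of 1.3. Nrcam, Nfasc and Dscam lie past the cutoff on the left. On the right L1cam and Dscaml1 lie past it in both kinds of cell, and Ncam1 in control cells only.

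Markers of cell type differed between KD and control cells as well. Over the 14 neuronal and sympathoadrenal markers the mean level per array was 8.98 to 9.05 in proliferating control cells and 9.18 to 9.20 in proliferating KD cells, with 5 of 14 called higher (Hand2, Isl1, Mycn, Th and Dbh). After RA it was 8.88 to 8.91 in control and 8.83 to 8.91 in KD cells, with Dbh called higher and Phox2a lower. Of these 14 markers 13 were tested. Of all genes tested, 3.96% were called higher and 3% lower before RA, and 3.71% and 4% after it. The mean of the 11 fibroblast markers was 7.11 to 7.15 in proliferating control and 6.94 to 6.98 in proliferating KD cells, and after RA 7.07 to 7.16 and 6.95 to 7.12, with only Pdgfrb of them called, lower, in both states. Glial, immune and endothelial markers had 0 called in both KD comparisons. The part of these shifts in the members' changes was not tested.

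The starts of the 3 genes called lower in both KD comparisons are shown here. Whether these genes are regulated together was not tested. The sequences are RefSeq promoters of assembly GRCm38.p6, from 250 bases before to 50 after the start, written on the strand of the gene with every CG in capitals. Nrcam starts in chr12:44328635-44328934 on the plus strand, Nfasc in chr1:132707277-132707576 and chr1:132642809-132643108 on the minus strand, and Dscam in chr16:97170686-97170985 on the minus strand.
Nrcam: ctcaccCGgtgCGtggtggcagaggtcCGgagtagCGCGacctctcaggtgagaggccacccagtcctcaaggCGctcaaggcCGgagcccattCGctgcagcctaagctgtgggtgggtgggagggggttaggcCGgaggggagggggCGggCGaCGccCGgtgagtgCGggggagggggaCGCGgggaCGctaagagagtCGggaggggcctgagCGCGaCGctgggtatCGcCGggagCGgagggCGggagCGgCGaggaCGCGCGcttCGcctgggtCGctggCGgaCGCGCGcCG
Nfasc, first start: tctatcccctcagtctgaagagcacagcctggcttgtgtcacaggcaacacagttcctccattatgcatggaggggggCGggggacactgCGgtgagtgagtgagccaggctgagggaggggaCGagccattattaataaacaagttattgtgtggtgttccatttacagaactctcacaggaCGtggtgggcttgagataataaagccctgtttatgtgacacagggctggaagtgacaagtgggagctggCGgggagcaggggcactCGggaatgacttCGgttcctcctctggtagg
Nfasc, second start: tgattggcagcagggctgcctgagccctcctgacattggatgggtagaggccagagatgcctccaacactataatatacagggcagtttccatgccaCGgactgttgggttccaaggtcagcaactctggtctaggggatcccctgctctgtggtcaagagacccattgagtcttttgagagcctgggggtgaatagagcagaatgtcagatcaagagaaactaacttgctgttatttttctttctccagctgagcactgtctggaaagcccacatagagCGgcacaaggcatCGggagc
Dscam: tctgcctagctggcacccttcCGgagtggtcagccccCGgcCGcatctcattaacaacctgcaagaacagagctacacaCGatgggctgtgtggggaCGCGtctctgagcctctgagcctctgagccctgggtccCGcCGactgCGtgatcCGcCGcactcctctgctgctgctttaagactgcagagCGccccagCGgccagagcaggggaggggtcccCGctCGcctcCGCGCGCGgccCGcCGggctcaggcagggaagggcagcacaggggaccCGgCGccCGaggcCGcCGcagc
They differ in base composition. The Nrcam window holds 37 CG and that of Dscam 26, at least as many as 95% and 84.5% of the 32851 mouse promoters in the table, while the first Nfasc window holds 7, the median of all promoters, and the second holds 3, at least as many as 31.4% of them. The windows of the other members found in the table hold between 4 and 41 CG.

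Motifs were counted on both strands. GGGCGG, a motif of Sp1, occurs in 35.7% of all promoters, and here 2 times in Nrcam, 1 time at the first Nfasc start and 0 times in Dscam. ATGCAAAT, the octamer bound by POU factors, occurs in 1.74% of all promoters and in 0 of the 12 windows found for 8 of the members. AGGTCA, a half-site of nuclear receptors such as those of RA, occurs in 16.3% of all promoters and here once, at the second Nfasc start. A count of letters is no measure of binding. Dscaml1 and Ncam1 had no entry.

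Position along the chromosome was examined next. For this the 25 measured protein-coding genes on each side of a member were taken in gene order. The 50 neighbours of Nrcam on chromosome 12 had a median KD change of 0.02 in proliferating cells and 0.01 after RA, and the lowest neighbour changed by -0.38 and -0.50. Nrcam was thus lower than every neighbour in both states, and the genes next to it, Pnpla8 (0.09 and 0.19) and Stxbp6 (-0.14 and 0.01), were not called.

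Nfasc and Cntn2 are direct neighbours on chromosome 1, and both encode axonal adhesion molecules. Only Nfasc was called, as Cntn2 changed by -0.09 ± 0.10 and -0.01 ± 0.10. On the other side lies Lrrn2, a leucine-rich repeat gene, which changed by -0.24 ± 0.04 (adjusted p = 0.00118) and -0.19 ± 0.04 (adjusted p = 0.0039), below the fold cutoff. The 50 neighbours of Nfasc had medians of -0.04 and -0.08, with the lowest at -0.29 and -0.41, above the change of Nfasc itself.

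Dscam, close to the end of chromosome 16, had 33 neighbours, with medians of -0.05 and -0.02. Unlike Nrcam and Nfasc it was not the lowest gene of its stretch. Its direct neighbour Pcp4, a small calmodulin-binding protein of neurons, measured 10.76, 10.69 and 10.77 in proliferating control cells and 9.84, 9.93 and 9.87 in proliferating KD cells. After RA it measured 10.21, 10.24 and 10.26 in control and 9.18, 9.11 and 9.01 in KD cells. Pcp4 was lower in KD cells by 0.86 ± 0.05 (adjusted p = 8.31e-07) and 1.14 ± 0.05 (adjusted p = 1.22e-07), more than Dscam in each state. It also fell with RA, by 0.50 in control cells and 0.78 in KD cells, where Dscam was not called. Bace2, on the other side of Dscam, changed by -0.18 and -0.05.

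Chl1 was not called, yet it lies on chromosome 6 between the contactin genes Cntn3 and Cntn6, which moved in opposite directions in KD cells. Cntn3 rose by 0.46 ± 0.05 (adjusted p = 7.11e-05) in proliferating cells and by 0.49 ± 0.05 (adjusted p = 4.35e-05) after RA. Cntn6 was at 6.05, 5.90 and 6.10 in proliferating control cells and at 5.24, 5.32 and 5.26 in KD cells. It changed by -0.74 ± 0.17 (adjusted p = 0.00575), and after RA by -0.90 ± 0.17 (adjusted p = 0.00174), calls that were lost where the lowest 25% of genes by level were dropped before the test. Chl1 itself changed by -0.04 and -0.05.

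**Figure D3:**
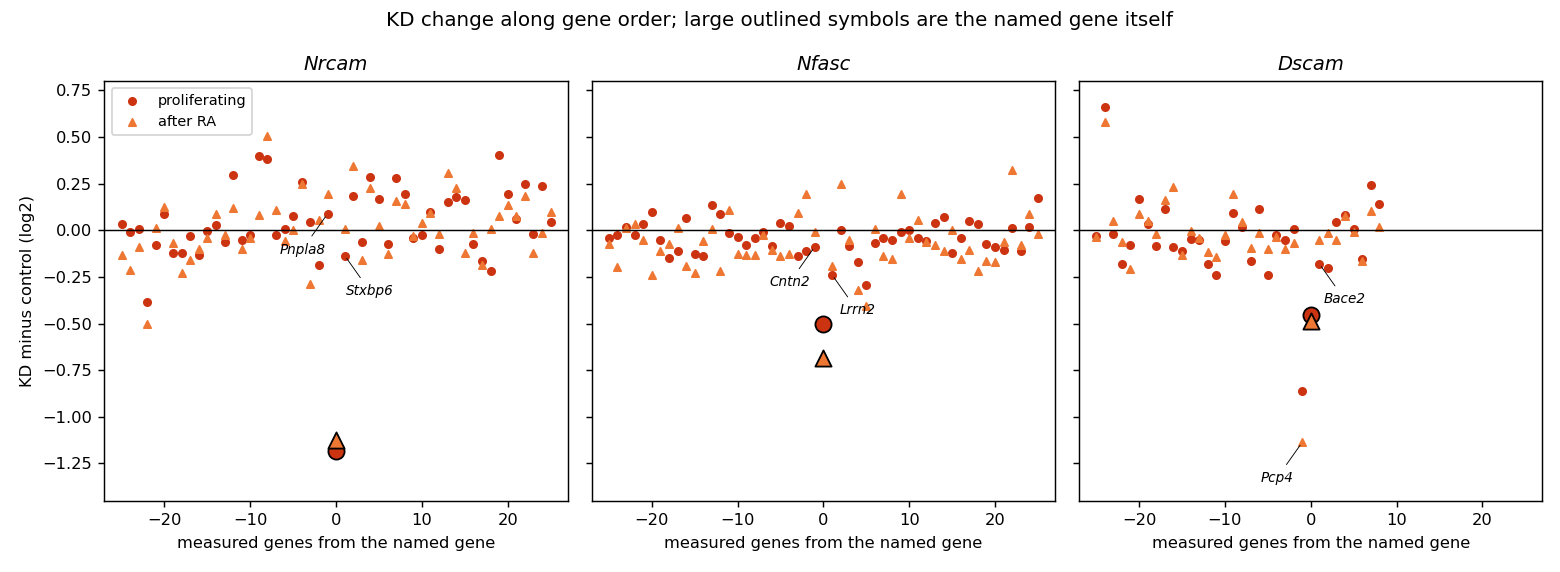
KD minus control, as a log2 difference (vertical axis), for Nrcam, Nfasc and Dscam and up to 25 measured protein-coding genes on each side in gene order (horizontal axis, number of genes from the named gene). Circles are proliferating cells and triangles RA-treated cells. Nrcam and Nfasc lie below all their neighbours, whereas Pcp4, next to Dscam, lies below Dscam.

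The next comparison was that of RA-treated with proliferating cells. In control cells 3 of 10 members (7 tested) were called lower, L1cam, Ncam1 and Dscaml1, and 0 higher. Of all genes tested, 3.76% were called lower and 5.58% higher. The members' median was -0.01, against 0.00 over all genes. This comparison shares the proliferating control arrays with the first one, so the members' values in both are given side by side and were not correlated.

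L1cam, the founding member of its family and a driver of neurite growth, lay at 11.64, 11.58 and 11.60 in proliferating control cells and at 11.07, 11.13 and 11.09 after RA. The fall of all RA arrays below all proliferating arrays came to -0.51 ± 0.04, or 1.42-fold (adjusted p = 1.80e-06). Ncam1, the archetype of the neural adhesion molecules, measured 11.77, 11.72 and 11.68 before and 11.29, 11.36 and 11.28 after RA, a difference of -0.42 ± 0.04 or 1.33-fold (adjusted p = 1.60e-05). Dscaml1 went from 8.96, 9.04 and 8.90 to 8.49, 8.58 and 8.50. Its difference was -0.44 ± 0.05, or 1.36-fold (adjusted p = 3.69e-05).

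None of the members lower in KD cells was called with RA. Dscam was higher by 0.21 ± 0.07 after RA in control cells (adjusted p = 0.039), under the fold cutoff. Nfasc differed by 0.24 ± 0.10 (adjusted p = 0.0813), with arrays that overlapped between the groups. For Nrcam the difference was -0.01, with a 95% confidence interval of -0.21 to 0.19. The interval of Cntn2 was -0.22 to 0.22, and the adjusted p of Chl1, Cntn1 and Ncam2 over all genes were 0.456, 0.153 and 0.838.

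In KD cells RA left 2 of 10 members (7 tested) called lower, L1cam and Dscaml1, and 0 higher. Of all genes tested, 4.57% were called lower and 5.37% higher. The medians were 0.03 over the members and -0.01 over all genes. L1cam went from 11.46, 11.43 and 11.48 to 10.92, 10.95 and 10.95, a difference of -0.52 ± 0.04 or 1.43-fold (adjusted p = 1.50e-06). Dscaml1 went from 8.80, 8.84 and 8.76 to 8.17, 8.16 and 8.24, by -0.61 ± 0.05 or 1.53-fold (adjusted p = 2.97e-06). In both genes the 4 groups stood in 1 order without overlap, from proliferating control cells through proliferating KD cells and RA-treated control cells to RA-treated KD cells.

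Ncam1 went from 11.73, 11.69 and 11.74 to 11.33, 11.38 and 11.38 in KD cells. The difference of -0.36 ± 0.04 (adjusted p = 5.50e-05) was 1.28-fold and so just under the cutoff. With each array centred on its median it passed, at -0.38. Over all alternatives that did not leave out an array it ranged from -0.38 to -0.30. Dscam differed by 0.18 ± 0.07 (adjusted p = 0.0707). The 95% confidence intervals were -0.15 to 0.26 for Nrcam, -0.16 to 0.27 for Nfasc and -0.14 to 0.29 for Cntn2, and the adjusted p of Chl1, Cntn1 and Ncam2 over all genes were 0.465, 0.954 and 0.976.

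Cell type markers moved with RA too. The mean of the 14 neuronal and sympathoadrenal markers went from 8.98 to 9.05 per array down to 8.88 to 8.91 in control cells, with 3 called lower (Gata2, Th and Dbh), and from 9.18 to 9.20 down to 8.83 to 8.91 in KD cells, with 5 called lower (these 3, Mycn and Gap43). Of these 14 markers 13 were tested. Of all genes tested, 3.76% were called lower in control cells and 4.57% in KD cells. Of the 11 immune and endothelial markers Pecam1 was called lower in both, and 0 glial and 0 fibroblast markers were called. Their part in the fall of L1cam, Ncam1 and Dscaml1 was not tested.

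Whether KD cells respond to RA differently was tested as an interaction, the response in KD cells less the response in control cells. It was called in 0 of 10 members by limma and in 1.24% of all genes tested. An unadjusted limma p under 0.05 was found for 1 of the 7 members tested, beside 1725 of all 9969 genes tested. That member was Dscaml1, with -0.17 ± 0.07 (adjusted p = 0.249). Nfasc had the largest interaction in size, -0.19 ± 0.14 (adjusted p = 0.542). The 95% confidence interval for Nrcam was -0.22 to 0.35. Among the cell type markers the interaction was called for Mycn, where it was negative, and for Pdgfrb, where it was positive.

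The genes that act with these adhesion molecules were followed in 5 lists with 95 genes, of which 90 were measured and 48 tested. In proliferating KD cells 5 were called higher and 3 lower, which is 10.4% and 6.25% of those tested, beside 3.96% and 3% of all genes tested. After RA 1 was called higher and 4 lower, which is 2.08% and 8.33%, beside 3.71% and 4% of all genes tested. Among 29 measured further adhesion molecules of the immunoglobulin class, the lowest KD change was that of Cntn6, described above beside Chl1. Higher in proliferating KD cells were Cntn3, Mcam, Opcml (0.40), a lipid-anchored IgLON protein, and Mdga1 (0.38), which blocks neuroligins, and Mdga1 and Opcml lay at the fold cutoff. With RA, Igsf9b of this list was called lower in control cells (-0.45).

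Mcam, a cell adhesion molecule of endothelium and melanoma, was at 9.27, 9.16 and 9.25 in proliferating control cells and at 9.90, 9.96 and 9.86 in proliferating KD cells. After RA it was at 8.84, 8.98 and 8.91 in control and 8.92, 8.92 and 8.87 in KD cells. The KD arrays were higher before RA, by 0.68 ± 0.05 (adjusted p = 3.50e-06), and overlapped with control arrays after it. Its fall with RA was -1.0 ± 0.05 in KD cells and -0.32 ± 0.05 in control cells, and its interaction of -0.68 ± 0.07 (adjusted p = 0.00166) was the only one called among these lists.

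Of 17 measured membrane partners, 2 were called lower in KD cells before and after RA. Nrp2, a semaphorin co-receptor that forms complexes with NrCAM, measured 9.69, 9.69 and 9.56 in proliferating control and 8.93, 8.96 and 8.96 in proliferating KD cells, a difference of -0.70 ± 0.05 (adjusted p = 5.31e-06). After RA it differed by -0.54 ± 0.05 (adjusted p = 3.40e-05). Prnp, the prion protein and a binding partner of NCAM, differed by -0.54 ± 0.07 and -0.42 ± 0.07 (adjusted p = 0.000141 and 0.000632). With RA in control cells the semaphorin receptors Nrp1 (0.49) and Plxna4 (0.74) rose, while Plxna3 (-0.40) and the growth factor receptor Fgfr1 (-0.38) fell, and in KD cells Plxna4 alone was called (0.54).

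Of 13 ligands and matrix genes only Ptn, the secreted growth factor pleiotrophin, was called. It was higher in proliferating KD cells (0.45 ± 0.08, adjusted p = 0.00122), though not past the cutoff without the second KD array (0.36), and it fell with RA by 0.55 in control and 0.86 in KD cells. Of 21 measured cytoplasmic partners, Dcx, a microtubule-binding protein that attaches to neurofascin, rose with RA in control cells (0.48 ± 0.11, adjusted p = 0.00443), though not past the cutoff without the second RA-treated control array (0.36). In KD cells Dcx differed by -0.01 with RA, and after RA it was lower in KD than in control cells by -0.60 ± 0.11 (adjusted p = 0.00119). Both calls of Dcx were lost where the lowest 25% of genes by level were dropped before the test. Its interaction of -0.49 ± 0.15 was not called (adjusted p = 0.125). Msn, which links L1 proteins to actin, fell with RA in control cells (-0.46) and KD cells (-0.41), and the scaffold gene Dlg4 fell in control cells (-0.40). Of 10 enzymes that process or glycosylate these proteins, 3 were tested and 0 called. With RA, 3 of the 48 tested genes were called higher and 6 lower in control cells (6.25% and 12.5%, beside 5.58% and 3.76% of all genes tested). In KD cells 1 was called higher and 3 lower (2.08% and 6.25%, beside 5.37% and 4.57%). With counts this small the shares of the lists say little beside those of all genes.

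**Figure D4:**
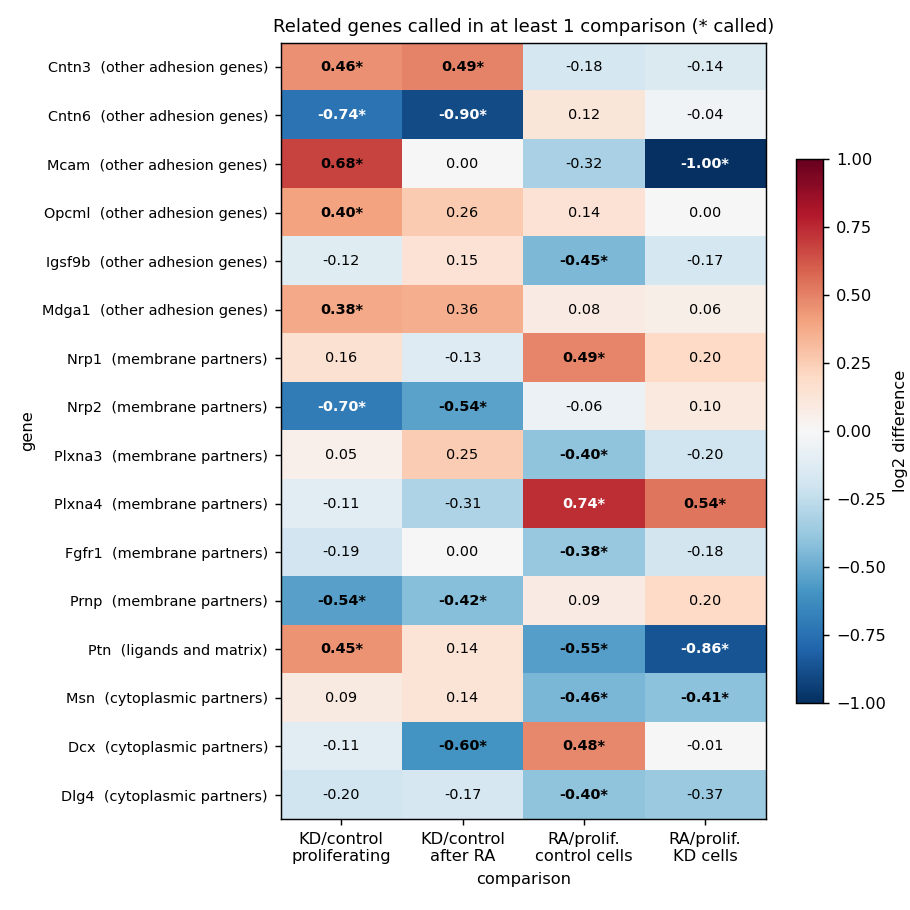
Log2 differences (colour and number) of the related genes called in at least 1 of the 4 comparisons, 1 gene per row with its list in brackets. An asterisk and bold type mark a called change. Cntn6, Nrp2 and Prnp are lower in KD cells in both states, and Cntn3 is higher in both.

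Over the 4 group means the genes whose profiles lay closest to each member lower in KD cells were found among 9355 tested genes, by the root mean square difference after centring each profile. Closest to Nrcam were Prom1 (0.059), Gca (0.063), Efhc2 (0.075), Etl4 (0.090) and Lima1 (0.12). Closest to Nfasc were Magea3 (0.023), Mir688 (0.029), Gstm2 (0.032), Plppr4 (0.039) and Pax3 (0.043), and to Dscam Bhlhe41 (0.027), Antxr2 (0.028), Cmbl (0.029), Rbp4 (0.030) and Mlec (0.032). Differences below about 0.1 are of the size of the standard errors of single genes here, so the order within each group of 5 is not resolved.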

How the data were processed

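RNA of 12 samples was hybridised to Affymetrix whole-transcript mouse gene arrays. The authors deposited a table of log2 values, made by RMA (background correction, quantile normalisation, summary). RMA and limma are credited to the submitters' processing notes, with versions and scan dates not given in the sources used here. Precision is limited by how many arrays there are.

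Of 35556 probe sets 21789 carried 1 symbol and 1621 several. Where a gene had several, that of the largest interquartile range was kept. A further probe set shared by Dscaml1 and Nme2 was not used. As in the study's methods genes of low variance were dropped, here the lower 50%, and 9969 were tested. All 4 group means were fitted together in limma 3.58.1 (R 4.3.3), without a block, with two-sided tests and Benjamini-Hochberg adjustment over the genes tested. Genes outside the tested set take their values from a fit of all 19938. The scripts were tested on simulated data. Same-numbered arrays were not paired in the fit. Their deviations correlated at -0.088 to 0.215, over 0.1 in 5 of 18 pairs, which does not settle whether they belong together.

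The text names all 10 members, up to 4 called genes of each list and comparison with the largest change, called markers, and the 5 closest profiles. The members and lists were chosen with earlier results of these data known, in which Nrcam and Dscam were already lower in KD cells, so these are not independent support. The direct neighbours were chosen for naming after their values were seen. Alternatives covered filters, probe set choice, scaling, samples in the fit, array weights, a replicate block, the fold cutoff and leaving out each array. Gene order and promoters came from RefSeq (GRCm38.p6). No other coordinates are printed, since the annotation of the array names no build.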

Additional observations from a re-analysis of the deposited data

Results flagged for a closer look

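The RA response of Mcam differed between KD and control cells by the test of the interaction itself (-0.68, limma adjusted p = 0.00166), as RA-treated KD arrays reached the level of RA-treated control arrays from a higher start.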

How the results depend on the processing

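Of 187 alternatives to the 11 called changes of members 180 kept direction and call, those leaving out 1 array included. Some of these could hardly differ. Each member had 1 probe set, so the choice of probe set could not change its values, and dropping the fold cutoff could only add calls. The 7 that did not keep the call arose with a filter on an interquartile range above 0.5, which Dscam, L1cam, Ncam1 and Dscaml1 did not pass, so that 0 members were called with RA in control cells and 0 in KD cells. Without the fold cutoff 5 members were called in each KD comparison. Under these 2 settings all genes called numbered 231 and 3485 (KD, proliferating), 226 and 3726 (KD after RA), 403 and 3298 (RA, control cells), 408 and 3652 (RA, KD cells) and 39 and 206 (interaction), against 694, 769, 931, 991 and 124 of 9969, and the interaction gave 41 to 143 without 1 array. Related genes called numbered 4, 2 and 2 with that filter in the first 3 comparisons and 21, 25, 21 and 24 without the fold cutoff in the first 4, against 8, 5, 9 and 4. They numbered 5 to 8 in proliferating KD cells without 1 array (5 without the second KD array), and 3 after RA with the lowest 25% by level dropped, which removed Cntn6 and Dcx. With a replicate block the members called stayed at 3, 3, 3, 2 and 0 and no call of a member changed, though the interaction gave 94 genes. Of the 12 arrays 6 correlated best with their own number, which does not settle whether the numbers pair the arrays. With 10 neighbours on each side the median changes were 0.063 and 0.048 (Nrcam), -0.059 and -0.11 (Nfasc) and, in proliferating cells, -0.010 (Dscam). Of called interactions 39.5% were higher, 24.5% with arrays centred on their medians and 59.9% with repeated quantile normalisation. For RA in KD cells these shares were 54.0%, 45.7% and 60.5%.

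Uncalled changes near 0 turned sign. Without 1 array they ranged, for KD in proliferating cells, from -0.15 to 0.014 (Cntn2) and -0.027 to 0.016 (Ncam1), for KD after RA from -0.089 to 0.023 (Chl1), -0.081 to 0.081 (Cntn2) and -0.14 to 0.047 (Ncam2), and for RA in control cells from -0.067 to 0.034 (Nrcam), -0.067 to 0.097 (Cntn2) and -0.059 to 0.0062 (Ncam2). For RA in KD cells they ranged from -0.034 to 0.14 (Nrcam), -0.033 to 0.14 (Nfasc), -0.023 to 0.022 (Cntn1) and -0.090 to 0.095 (Ncam2), and for the interaction from -0.025 to 0.14 (Nrcam), -0.025 to 0.0069 (L1cam), -0.045 to 0.067 (Chl1), -0.021 to 0.17 (Cntn2), -0.056 to 0.13 (Ncam2) and -0.11 to 0.032 (Dscam). Array weights turned Cntn2 (0.021, RA in control cells), Cntn1 (-0.0071, RA in KD cells) and Ncam2 (-0.059, interaction). Centring turned Nrcam (0.0048) and Cntn2 (0.0093) for RA in control cells, Cntn1 (-0.018) for RA in KD cells and Ncam2 (-0.0092) for the interaction. Repeated quantile normalisation turned Ncam1 (0.0036, KD, proliferating), Cntn2 (0.033, KD after RA), Cntn1 (-0.00017, RA in KD cells), Chl1 (0.0076, interaction) and Dscam (0.0059, interaction). The cause was not tested.

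Of 498 alternatives to the 29 called changes of other named genes 461 kept the call and 0 turned sign. Leaving out 1 array brought several under the fold cutoff: Opcml (0.37 without the second control or the second KD array) and Mdga1 (0.31 without the second control, 0.37 without the second or the third KD array) in proliferating KD cells, Fgfr1 (-0.36 and -0.34) and Dlg4 (-0.37 and -0.37) without control array 1 before RA or 3 after it, and Msn in KD cells (-0.38 without the third RA-treated array). Scaling did so too, as centring brought Mdga1 to 0.377 and Fgfr1 to -0.367, and repeated quantile normalisation brought Opcml to 0.373, Mdga1 to 0.374 and Msn in KD cells to -0.377, which array weights brought to -0.371.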

Other observations

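The probe set shared by Dscaml1 and Nme2 (a nucleoside diphosphate kinase gene), which was left out above, differed by -0.12 and -0.07 between KD and control cells before and after RA, and by -0.07 and -0.01 with RA in control and KD cells. These are smaller in size than the values of the Dscaml1 probe set in each comparison, and its signal cannot be split between the genes.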
